A study of Mus musculus with 8 samples.

Results

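Telmisartan and candesartan, a pair of drugs that block the same angiotensin II receptor, were compared in the fat of obese mice. The comparison rests on 4 of the 8 arrays of the study, those of the 2 mice given telmisartan and the 2 mice given candesartan, chosen by their sample titles. All animals were male C57BL/6J mice bought at 6 weeks of age. HFD+Tel mice ate a high-fat diet with 30% of calories from fat for 24 weeks and then had telmisartan at about 3 mg/kg/day in the drinking water for 5 weeks. HFD+Can mice had the same diet and the same 5 weeks of candesartan at about 3 mg/kg/day. The 2 HFD mice ate the high-fat diet with no drug, and the 2 chow mice were fed chow that drew 10% of its calories from fat. Both sets are used here to show the level of a gene without a drug and to estimate the spread between mice. The drugs were randomized among the fat-fed mice. RNA of the epididymal fat pad of each mouse went on an array of its own.

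Angiotensin II is the effector peptide of the renin-angiotensin system, made from angiotensinogen by renin and the angiotensin-converting enzyme, and the receptor that both drugs block raises blood pressure when it is occupied. Telmisartan is also known as a partial agonist of PPARγ, the nuclear receptor that drives fat cell differentiation, a property for which candesartan is not known at like concentrations. Both molecules carry a benzimidazole and a biphenyl. Telmisartan has an additional benzimidazole and bears a carboxylic acid on the biphenyl, where candesartan bears a tetrazole. In obese fat, macrophages gather around dying fat cells. Those that carry the integrin CD11c are commonly described as inflammatory (M1), while resident macrophages that carry scavenger receptors and C-type lectins and respond to interleukin 4 are described as M2. This was the only pair of compounds in the study, at matched dose and time.

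A signal below is the array intensity once all arrays had been brought to the same trimmed mean, and a difference is telmisartan minus candesartan on the log2 scale. In total 11232 genes were bright enough to be tested. The fat markers were at the top of the range, with Adipoq, which encodes adiponectin, at 18324 and 15764 on the telmisartan arrays and at 16926 and 16606 on the candesartan arrays. All 16 adipocyte markers on the array passed the filter on low values, against 0 of 15 genes of epididymis and testis, the neighbouring organs. Before scaling, the trimmed mean signal was 214 and 178 on the telmisartan arrays and 237 and 228 on the candesartan arrays. The telmisartan arrays were the least alike. The SD of the log2 difference between arrays 1 and 2 over all genes was 0.484 for telmisartan, 0.314 for candesartan, 0.273 for HFD and 0.445 for chow. Of the genes tested, 534 differed by more than 1 on the log2 scale between the telmisartan mice, and 117 between the candesartan mice. On the first principal component (53.1% of the variance), telmisartan arrays 1 and 2 stood at −2.99 and 26.0, candesartan at 9.93 and 17.3, HFD at 16.5 and 16.9, and chow at −43.3 and −40.4.

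No gene distinguished the drugs after correction for all genes. limma called 0 of 11232 genes at an adjusted p under 0.05 (0% called), and the smallest adjusted p was 0.484, for Cd163l1. An unadjusted p under 0.05 was found for 550 genes (4.90% of those tested), where 561.6 would be expected by chance. Of the 550, 169 were higher (1.50%) and 381 lower (3.39%) with telmisartan. The higher ones made up 30.7% of these, against 42.4% with quantile normalization (208 higher, 282 lower), 40.9% with median centring (215 and 311) and 1.33% without scaling (22 and 1637). Genes with an unadjusted p under 0.05 numbered 832 without telmisartan array 1, 1791 without telmisartan array 2 and 210 without candesartan array 2. Variances without the intensity trend or with robust moderation also gave 0 genes called. The telmisartan arrays did not overlap the candesartan arrays for 3615 genes (32.2%), of which 1750 lay higher (15.6%) and 1865 lower (16.6%). With drug labels placed at random, a share of 0.333 would be expected not to overlap, and the count is near that share. An exact permutation test of 2 arrays against 2 can give no p below 0.333. All values of single genes below are therefore differences that did not pass the test.

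After scaling to the same trimmed mean, which itself brings the arrays to a common level, the typical gene was nearly level between the drugs. The median difference was −0.01, and the middle of the distribution ran from −0.17 to 0.13 between its quartiles. The 95% interval of a gene reached 0.44 to each side of its estimate at the median. For 9506 genes (84.6%) the whole interval lay within 1 log2 unit of no difference. Only 65 genes differed by more than 1, 23 higher and 42 lower with telmisartan, and for 40 of these (15 and 25) the unadjusted p was under 0.05 and the arrays did not overlap. Without scaling of the arrays the median of all genes was −0.26, and differences are to be read relative to it there.

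**Figure D1:**
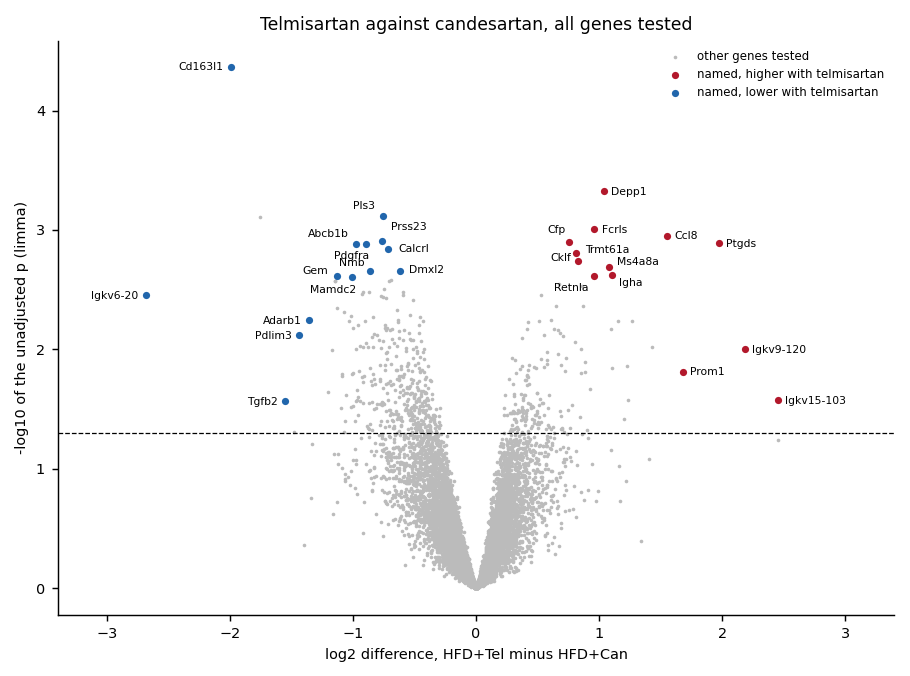
Each point is a gene, with the log2 difference of HFD+Tel minus HFD+Can on the x axis and the negative log10 of its unadjusted limma p on the y axis. Named genes are red where higher and blue where lower with telmisartan, the dashed line marks an unadjusted limma p of 0.05, and Cd163l1 stands highest at a difference of −1.99.

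Cd163l1, a scavenger receptor of the family of the macrophage receptor CD163, showed the smallest p in the comparison. Its signal was 24.5 and 29.9 on the telmisartan arrays, 108 and 107 on the candesartan arrays, 63.9 and 79.9 with HFD, and 99.8 and 81.2 with chow. Both telmisartan mice lay below all 6 other mice. The difference was −1.99 (95% CI −2.59 to −1.40, adjusted p 0.484). It was measured by a lone probe set past the filter, of a type that the array maker marks as able to match other transcripts. The range was −2.25 to −1.52 over the other ways of processing the values. Without scaling of the arrays the adjusted limma p was 0.0407, the sole call under that setting. There the median of all genes was −0.26, which favours genes that lie lower with telmisartan.

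The other genes with the smallest p and lower signals with telmisartan came from several cell types. Pdgfra, the growth factor receptor that marks fat progenitors, was at 481 and 561 on the telmisartan arrays, against 855 and 1093 on the candesartan arrays (−0.90, 95% CI −1.33 to −0.46), with 938 and 1078 in HFD mice. Both of its probe sets gave a negative difference. Pls3, an actin-bundling protein, was at 738 and 608 with telmisartan, against 1077 and 1192 with candesartan (−0.76), with 927 and 795 in HFD mice. Abcb1b, the drug efflux pump P-glycoprotein, was at 89.6 and 105 with telmisartan, against 162 and 223 with candesartan (−0.97), with 163 and 171 in HFD mice. In these genes both telmisartan mice lay below both candesartan mice, which the rule for naming genes required. Calcrl, the receptor subunit for adrenomedullin and CGRP, differed by −0.72, the peptide gene Nmb by −0.86, the secreted protease gene Prss23 by −0.76, and the small GTPase gene Gem by −1.13. Mamdc2 differed by −1.01 and Dmxl2 by −0.62. On the log2 scale, candesartan minus HFD was 0.48 for Calcrl, 0.52 for Nmb and 0.33 for Dmxl2. Telmisartan minus HFD was −0.24, −0.34 and −0.28 in the same order. For Prss23, Gem and Mamdc2, candesartan minus HFD was 0.10, −0.17 and 0.10, and telmisartan minus HFD −0.67, −1.30 and −0.91. Among the largest differences, the antibody light chain segment Igkv6-20 stood at 27.1 and 83.8 with telmisartan, against 495 and 190 with candesartan (−2.69). In HFD mice it stood at 53.8 and 57.1, so the candesartan arrays were the high ones among fat-fed mice. Pdlim3 (−1.44), the RNA-editing enzyme gene Adarb1 (−1.36) and Tgfb2, a TGF-β ligand (−1.55), were dim. Tgfb2 reached 8.23 on telmisartan array 2 with no array at the floor of 6.69. Its difference was −2.55 without telmisartan array 1, −0.56 without array 2 and −0.90 with a pseudocount of 16 in place of the floor.

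Higher signals with telmisartan were led by Depp1, a FOXO-induced regulator of autophagy. It was at 974 and 1404 on the telmisartan arrays, 595 and 544 on the candesartan arrays, 515 and 601 with HFD, and 758 and 667 with chow (1.04, 95% CI 0.61 to 1.47, adjusted p 0.924). Both telmisartan mice lay above all 6 other mice. Ccl8, a chemokine of monocytes, was at 4554 and 8192 with telmisartan, against 2712 and 1595 with candesartan (1.55, 95% CI 0.82 to 2.29), with 2191 and 1532 in HFD mice. Fcrls, a scavenger receptor of tissue macrophages, was at 730 and 494 with telmisartan, against 307 and 309 with candesartan (0.96), and Ms4a8a, a membrane protein of the MS4A family, was at 210 and 183 against 96.7 and 88.2 with candesartan (1.08). In all 4 genes the drugs' arrays did not overlap, which the rule for naming genes required. Both telmisartan arrays also lay above both HFD arrays. Ptgds, the lipocalin-type prostaglandin D synthase, was at 136 and 75.0 with telmisartan, 20.4 and 32.3 with candesartan, 42.1 and 55.4 with HFD, and 224 and 120 with chow (1.97). The tRNA methyltransferase gene Trmt61a differed by 0.81. Cfp, the complement regulator properdin, differed by 0.76 in its brightest probe set and by −0.34 in another, and Cklf by 0.83, with 4 of its 5 probe sets positive. Prom1 differed by 1.68, a value that was 0.72 without telmisartan array 1 and 2.64 without array 2. Of the antibody genes, Igha differed by 1.10, Igkv15-103 by 2.45 and Igkv9-120 by 2.18 in its brighter probe set and −1.72 in the other. Igkv15-103 was at 64.7 and 439 with telmisartan, against 31.5 and 30.2 with candesartan. Its difference ran from 1.07 to 3.83 when an array was left out. In HFD mice Igha stood at 1025 and 978, above its 594 and 770 with telmisartan and its 419 and 237 with candesartan.

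**Figure D2:**
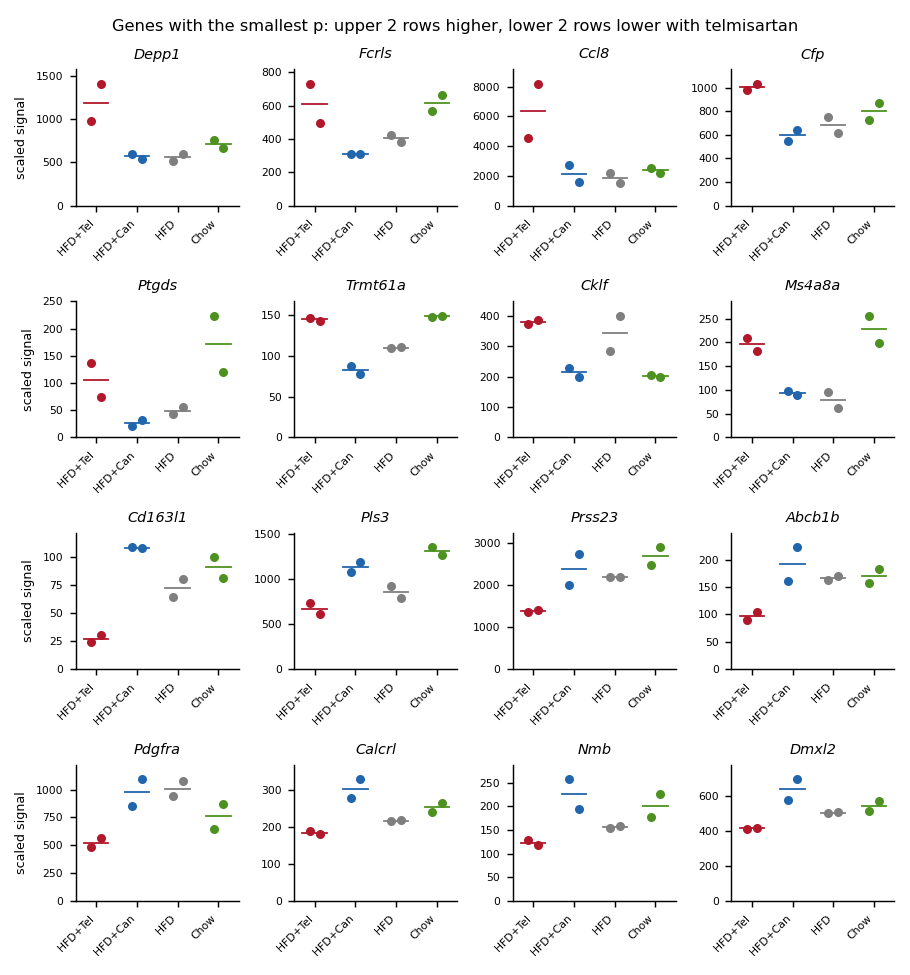
Scaled array signal of the genes with the smallest p among those whose drug arrays did not overlap. A point stands for each mouse and a bar for each group mean, with HFD+Tel left of HFD+Can, HFD and chow. Each y axis starts at 0. The upper rows hold genes whose telmisartan arrays lay above the candesartan arrays, such as Depp1 (974 and 1404 against 595 and 544), and the lower rows those that lay below, such as Cd163l1 (24.5 and 29.9 against 108 and 107).

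Among the general, M1, M2 and lipid-laden macrophage lists, the M2 list held the member with the largest difference (Mgl2, 1.27). Of 20 members tested, 5 lay higher with telmisartan without overlap and 1 lower (15.6% and 16.6% of all genes). An unadjusted p under 0.05 was found for 3 on the high side and 1 on the low side (1.50% and 3.39% of all genes), and none was called. The list's median difference was 0.14, beside −0.01 over all genes. It was 0.28 without telmisartan array 1 and 0.04 without array 2. The members Chil3, Il10, Pdcd1lg2, Ccl17 and Ccl22 were below the filter. In bulk tissue such as this, fewer cells of a type and less RNA per cell cannot be told apart.

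Retnla, the secreted resistin-like protein that interleukin 4 induces in macrophages, was at 8221 and 6351 with telmisartan, 4280 and 3217 with candesartan, 4700 and 3004 with HFD, and 10882 and 11626 with chow. Both telmisartan mice lay above the other 4 fat-fed mice and below both chow mice. The drugs' difference was 0.96 (95% CI 0.44 to 1.48, adjusted p 0.924). Mgl2, a galactose-binding C-type lectin of M2 macrophages and dendritic cells, was at 543 and 224 with telmisartan, 152 and 138 with candesartan, 210 and 169 with HFD, and 568 and 563 with chow (1.27, 95% CI 0.48 to 2.06). Telmisartan array 1 was close to the chow arrays and array 2 to the HFD arrays, and the difference was 0.63 without array 1. Clec10a, its neighbour in the lectin family, was at 2037 and 2463 with telmisartan, 1325 and 1506 with candesartan, 1607 and 1176 with HFD, and 1238 and 1531 with chow (0.67, 95% CI 0.24 to 1.09). Here both telmisartan mice stood above all 6 others. Cd163, the haemoglobin scavenger receptor, was at 587 and 475 with telmisartan, against 317 and 379 with candesartan (0.61, 95% CI −0.16 to 1.37), and F13a1, the coagulation factor subunit that resident macrophages make, was at 3135 and 2538 against 2291 and 2255 with candesartan (0.31).

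The promoters of Retnla and Mgl2 are shown because these genes stood higher together. Interleukin 4 acts through STAT6, which is known to bind TTC and GAA set 4 bases apart, and 6.95% of the 32851 promoters in the RefSeq table (250 bases before to 50 after a start site, build GRCm38.p6, either strand searched) hold that pattern. In the Retnla promoter (chr16:48842359-48842658, plus strand) it occurred 1 time, at −145 to −136 from the start site, and is given in capitals. In the Mgl2 promoter (chr11:70130107-70130406, plus strand) these letters were not in the window. The Cd163l1 promoter was searched as well, held 0 matches and is not shown. Clec10a had no entry among the RefSeq promoters.
Retnla: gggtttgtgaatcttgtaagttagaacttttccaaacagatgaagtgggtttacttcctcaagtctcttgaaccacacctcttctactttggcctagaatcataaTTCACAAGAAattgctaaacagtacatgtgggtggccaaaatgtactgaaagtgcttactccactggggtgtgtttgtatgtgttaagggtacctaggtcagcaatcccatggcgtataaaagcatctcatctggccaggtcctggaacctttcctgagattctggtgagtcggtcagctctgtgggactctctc
Mgl2: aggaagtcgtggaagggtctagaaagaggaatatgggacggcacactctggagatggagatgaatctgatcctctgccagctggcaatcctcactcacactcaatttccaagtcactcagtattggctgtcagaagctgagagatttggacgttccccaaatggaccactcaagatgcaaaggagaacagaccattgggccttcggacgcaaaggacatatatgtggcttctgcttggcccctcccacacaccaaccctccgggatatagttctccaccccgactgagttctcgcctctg

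Other M2 members were nearly level or spread within a group. Mrc1, the mannose receptor, was at 1634 and 3177 with telmisartan, against 1849 and 2100 with candesartan (0.21, 95% CI −0.52 to 0.94), and changed sign to −0.27 without telmisartan array 2. Arg1, the arginase of alternatively activated macrophages, was at 79.2 and 128 with telmisartan, against 66.6 and 105 with candesartan (0.27, 95% CI −1.46 to 1.99). Folr2 differed by 0.07, Lyve1 by −0.02 and Stab1 by −0.22. The transcription factor Klf4, which M2 polarization uses, was at 939 and 823 with telmisartan, against 1076 and 1289 with candesartan (−0.42, 95% CI −0.74 to −0.10), opposite to the lectins.

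A group of lectins and chemokines was picked after their values were seen, since they stood near the members above. Cd209g, a C-type lectin of the DC-SIGN family, was at 349 and 162 with telmisartan, 143 and 109 with candesartan, 152 and 121 with HFD, and 581 and 675 with chow (0.93). Its relatives Cd209a (308 and 113 against 99.9 and 99.4) and Cd209d (279 and 108 against 95.3 and 103) had the same layout. In all 3, telmisartan array 1 carried most of the difference. Without that array the differences were 0.37 for Cd209g, 0.18 for Cd209a and 0.13 for Cd209d. Ccl12, a monocyte chemokine, was at 162 and 424 with telmisartan, against 132 and 71.6 with candesartan (1.43), and there array 2 was the higher of the pair.

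CD11c and some genes of lipid-laden macrophages stood lower with telmisartan, while the lipid-laden list as a whole went both ways. Itgax, which encodes CD11c, was at 897 and 1470 with telmisartan, 1503 and 2106 with candesartan, 1560 and 1987 with HFD, and 195 and 217 with chow (−0.63, 95% CI −1.21 to −0.05, adjusted p 0.924). The telmisartan arrays lay below those of candesartan and HFD, array 2 of telmisartan by little, and the difference was −0.28 without array 1 and −0.99 without array 2. Ctsk, the collagen-degrading cathepsin K, was at 1211 and 1863 with telmisartan, against 2351 and 3057 with candesartan (−0.84, 95% CI −1.35 to −0.32). The macrophage elastase Mmp12 was at 1409 and 2442 with telmisartan, against 2257 and 4038 with candesartan, which overlapped (−0.70), and the glycoprotein gene Gpnmb at 4258 and 5649 against 6235 and 8383 with candesartan (−0.56). Trem2, the lipid receptor of these cells, differed by −0.35 with overlapping arrays. In the lipid-laden list of 21 genes tested, 5 lay higher and 4 lower without overlap (15.6% and 16.6% of all genes), and 0 and 2 had an unadjusted p under 0.05 on the high and the low side (1.50% and 3.39% of all genes). The median was −0.10, and 0.07 without telmisartan array 1.

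Inflammatory (M1) genes as a group went both ways. Of 13 tested, 1 lay higher and 2 lower without overlap (15.6% and 16.6% of all genes), and the median was 0.14. Ccl2, the main monocyte-recruiting chemokine, was at 838 and 727 with telmisartan, 651 and 488 with candesartan, and 706 and 847 with HFD (0.47, 95% CI 0.02 to 0.92), so the candesartan arrays were the low ones among fat-fed mice. Cxcl9 (848 and 2538 against 1309 and 662) and Cxcl10 (163 and 299 against 199 and 104), the chemokines that interferon induces, overlapped between the drugs. Tnf was below the filter, with signals of 25.5 and 23.4 with telmisartan, 16.6 and 46.5 with candesartan, and 48.6 and 41.5 with HFD. The median of the list turned to −0.23 without telmisartan array 2 and was 0.63 without array 1.

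The general macrophage markers differed little in their medians. Adgre1, which encodes F4/80, was at 1743 and 3503 with telmisartan, against 2172 and 2935 with candesartan (−0.03, 95% CI −0.68 to 0.62), with the candesartan mice between the telmisartan mice. Csf1r, the receptor on which macrophages depend, was at 7620 and 9329 with telmisartan, against 7454 and 8511 with candesartan (0.08). Of the 25 pan-macrophage genes, all tested, 1 lay higher and 0 lower without overlap (15.6% and 16.6% of all genes) and the median was 0.06. Their summed signal was 96293 and 136298 on the telmisartan arrays, 101013 and 113360 on the candesartan arrays and 45765 and 49783 on the chow arrays. Telmisartan array 1 was thus the lowest and array 2 the highest of the fat-fed mice. The part of that spread in the values of single macrophage genes was not tested.

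**Figure D3:**
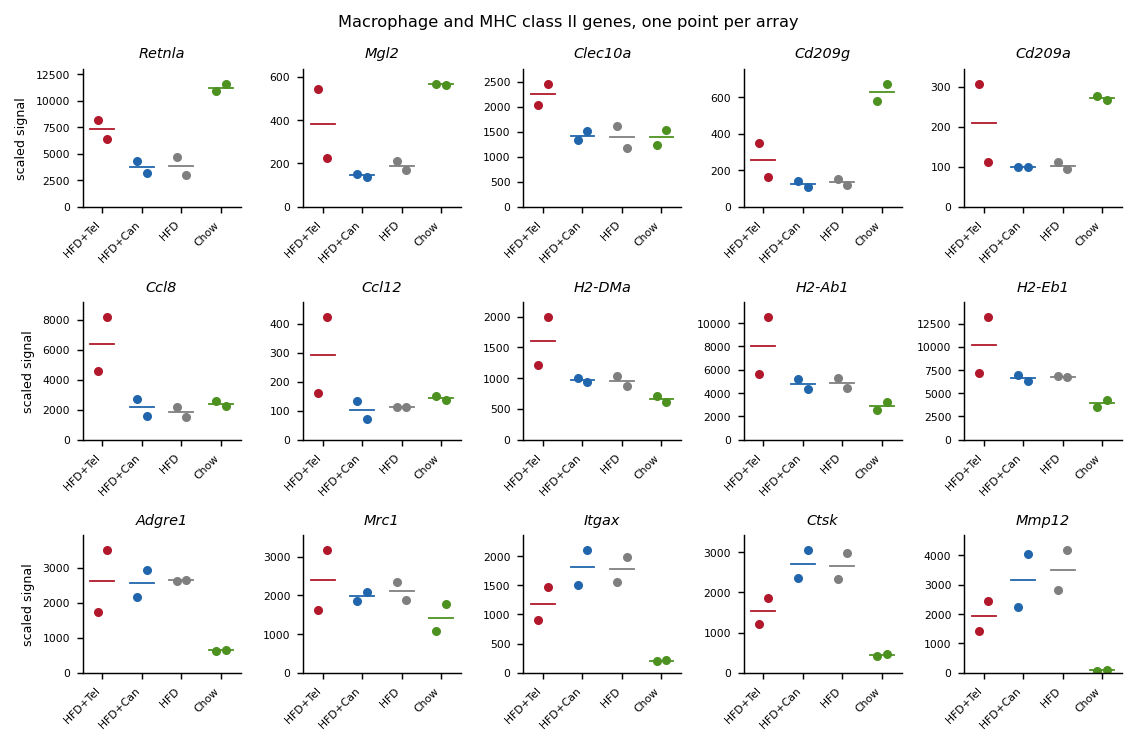
Scaled signal of 15 macrophage and MHC class II genes, a point for each mouse and a bar for each group mean, with HFD+Tel left of HFD+Can, HFD and chow and each y axis starting at 0. Retnla was at 8221 and 6351 with telmisartan against 4280 and 3217 with candesartan, while Adgre1 overlapped (1743 and 3503 against 2172 and 2935) and Itgax lay lower (897 and 1470 against 1503 and 2106).

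MHC class II genes, which present antigen to helper T cells, stood higher with telmisartan. In the list of dendritic cell and MHC class II genes, 6 of the 8 members tested lay higher without overlap (15.6% of all genes did) and 0 lower, 5 had an unadjusted p under 0.05 (1.50% of all genes on that side), and 0 were called. Both the 6 and the 5 include the lectin gene Cd209a, which was at 308 and 113 on telmisartan arrays 1 and 2. The median difference of the list was 0.49. H2-Ab1 was at 5605 and 10543 with telmisartan, against 5243 and 4383 with candesartan (0.68, 95% CI 0.07 to 1.29). H2-Eb1 was at 7226 and 13248 with telmisartan, against 6927 and 6308 with candesartan (0.57), and H2-DMa, which loads peptides, at 1220 and 1997 against 1005 and 929 with candesartan (0.69). H2-Aa differed by 0.42 and the invariant chain gene Cd74 by 0.23, both picked after their values were seen. In every one of these 5 genes telmisartan array 2 was the highest of the 8 arrays, while array 1 lay closer to the candesartan and HFD arrays. Without array 2 the median of the list was 0.14, and without array 1 it was 0.85. Ciita, the master regulator of these genes, was at 64.9 and 152 with telmisartan, against 70.7 and 84.2 with candesartan, which overlapped (0.36), and the dendritic cell factor Zbtb46 differed by −0.04. The summed signal of the list was 36278 and 54076 with telmisartan, 33256 and 31631 with candesartan, 33393 and 32692 with HFD, and 20228 and 24279 with chow. Flt3, Xcr1 and Ccr7 of that list were below the filter.

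The promoters of H2-Eb1 and H2-Aa show the CCAAT box that the trimeric factor NF-Y is known to bind in MHC class II genes. CCAAT on either strand, given in capitals (ATTGG where it lies on the other strand), is a common pattern, held by 37.4% of the RefSeq promoters. H2-Eb1 (chr17:34305617-34305916, plus strand) has it at −59 to −55 and at −35 to −31, and H2-Aa (chr17:34287774-34288073, minus strand) at −48 to −44. H2-DMa was searched as well and is not shown. Its promoter 1 held 0 matches, and its promoter 2 held 1, at −198 to −194.
H2-Eb1: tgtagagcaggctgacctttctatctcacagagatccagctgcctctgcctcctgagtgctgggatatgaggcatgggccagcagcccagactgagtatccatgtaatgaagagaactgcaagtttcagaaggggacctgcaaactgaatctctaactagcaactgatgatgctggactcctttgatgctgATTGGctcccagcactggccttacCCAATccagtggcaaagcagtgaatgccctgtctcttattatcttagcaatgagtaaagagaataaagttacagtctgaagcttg
H2-Aa: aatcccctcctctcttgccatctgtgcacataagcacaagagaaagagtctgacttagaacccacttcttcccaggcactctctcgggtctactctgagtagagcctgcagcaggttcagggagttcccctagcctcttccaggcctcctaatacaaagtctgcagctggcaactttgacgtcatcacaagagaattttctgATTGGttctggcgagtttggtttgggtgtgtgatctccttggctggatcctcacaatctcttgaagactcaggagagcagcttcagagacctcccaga

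Interferon response genes had the same uneven layout. Of 19 tested, 1 lay higher and 0 lower without overlap (15.6% and 16.6% of all genes), with a median of 0.10 (−0.15 without scaling, beside −0.26 for all genes). The immunoproteasome subunit gene Psmb9 was at 776 and 1474 with telmisartan, against 818 and 536 with candesartan (0.69), Psmb8 differed by 0.47 and the guanylate-binding protein gene Gbp2 by 0.55, all with overlapping arrays. Relative to the HFD mean, the list's median was −0.33 on telmisartan array 1 and 0.71 on array 2, against −0.01 and −0.03 on the candesartan arrays. It was 0.65 without array 1 and −0.38 without array 2, so its direction rests on the choice between these mice.

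**Figure D4:**
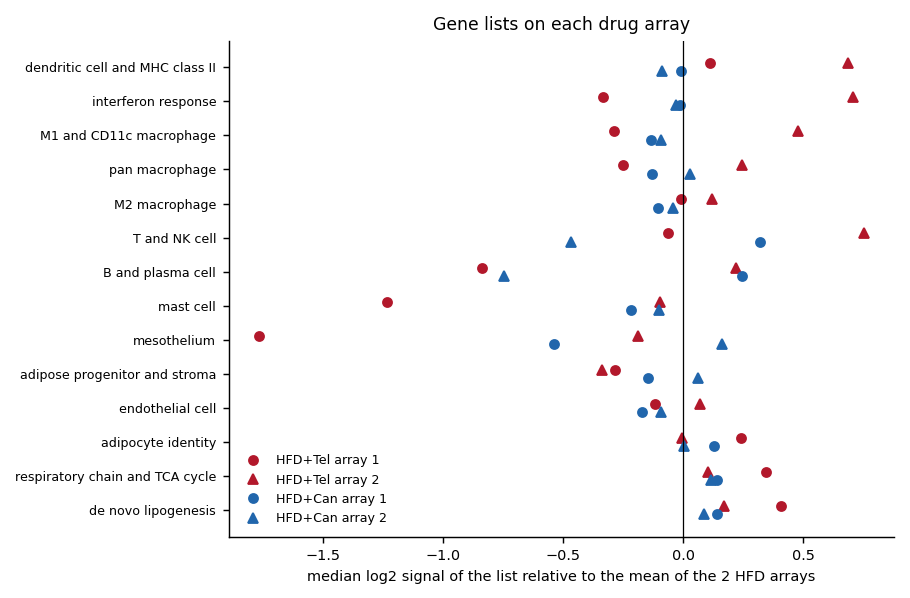
Median log2 signal of each gene list relative to the mean of the HFD arrays, with red for the telmisartan arrays and blue for the candesartan arrays, circles for array 1 and triangles for array 2. The telmisartan arrays are far apart for mesothelium (−1.77 and −0.19), mast cells (−1.24 and −0.10) and interferon response (−0.33 and 0.71), and close for adipose progenitors (−0.29 and −0.34).

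Of the genes tested from the renin-angiotensin system, on which both drugs act, 3 differences were positive and 6 negative, from −0.53 to 0.32. Agtr1a, which encodes the drugs' receptor, was at 338 and 413 with telmisartan, 339 and 397 with candesartan, 476 and 396 with HFD, and 422 and 411 with chow (0.03, 95% CI −0.35 to 0.41). The telmisartan arrays overlapped those of candesartan. Agt, angiotensinogen, was at 780 and 345 with telmisartan, against 412 and 421 with candesartan, a difference of 0.32 whose interval of −0.65 to 1.28 is wide because telmisartan array 1 stood above the rest of the fat-fed mice. It was −0.27 without that array. The converting enzyme gene Ace was at 427 and 564 with telmisartan, against 519 and 494 with candesartan (−0.05). Mme, neprilysin, which degrades angiotensin and natriuretic peptides, was at 643 and 565 with telmisartan, against 777 and 971 with candesartan (−0.53, 95% CI −0.88 to −0.18) and was the member of the list with an unadjusted p under 0.05. The mineralocorticoid receptor gene Nr3c2 was at 41.1 and 56.4 against 61.5 and 75.8 with candesartan (−0.50), and Agtrap, the receptor-associated protein, differed by 0.24. Of the 9 members tested, 1 lay higher and 2 lower without overlap (15.6% and 16.6% of all genes), with a median of −0.04. Agtr1b, Agtr2 and Mas1 were below the filter.

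Genes of the PPARγ system went both ways. Pparg itself was at 2580 and 1856 with telmisartan, 2325 and 1807 with candesartan, 1660 and 1792 with HFD, and 2883 and 3175 with chow (0.09, 95% CI −0.32 to 0.51). Of 16 genes for PPARs, RXRs and their coregulators, 3 lay higher and 5 lower without overlap (15.6% and 16.6% of all genes), 0 had an unadjusted p under 0.05, and the median was 0.03 (−0.12 without telmisartan array 1 and −0.11 without candesartan array 2). Ppargc1a, the coactivator of mitochondrial genes, was at 29.7 and 35.3 with telmisartan, against 59.6 and 44.4 with candesartan (−0.67), Ppara differed by −0.47, and Cebpb, an early adipogenic factor, by 0.27. Of 23 PPARγ target genes, 6 lay higher and 3 lower without overlap (15.6% and 16.6% of all genes), and 0 and 1 had an unadjusted p under 0.05 on the high and the low side (1.50% and 3.39% of all genes), on the low side Cidea (−0.90). The differences ran from −0.90 to 0.64 with a median of 0.10, which was −0.04 without telmisartan array 1 and 0.0045 with quantile normalization. Fabp4, the fatty acid carrier of fat cells, was at 23796 and 24400 with telmisartan, against 21699 and 22056 with candesartan (0.14, 95% CI −0.06 to 0.34), but 3 of its 4 probe sets gave a negative difference. The lipoprotein lipase inhibitor gene Angptl4, picked after its values were seen, was at 6967 and 6694 with telmisartan, against 5070 and 6035 with candesartan (0.30). Cd36, the fatty acid transporter, differed by −0.10 (95% CI −0.31 to 0.12). Pck1, an enzyme of the path toward glycerol phosphate, was at 1927 and 1354 with telmisartan, against 2519 and 2371 with candesartan (−0.60). Of 14 genes that respond to PPARγ phosphorylation, 2 lay higher and 2 lower without overlap (15.6% and 16.6% of all genes), 0 had an unadjusted p under 0.05 and the median was 0.03.

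For the fat cell genes, the intervals below apply to the brightest probe set of each gene. Adipoq differed by 0.02 (95% CI −0.23 to 0.27) and Lep, which encodes leptin, by 0.06 (−0.35 to 0.47). Slc2a4, the insulin-responsive glucose transporter, was at 757 and 449 with telmisartan, against 710 and 538 with candesartan (−0.08, 95% CI −0.64 to 0.47), with 1615 and 1673 in chow mice. Pdk4, a kinase that PPARs induce, differed by 0.02 (−0.67 to 0.71). Of 16 adipocyte identity genes, 3 lay higher and 0 lower without overlap (15.6% and 16.6% of all genes), and all differences were between −0.08 and 0.21, the narrowest range among the lists of that size or larger. The 14 adipokine genes had a median of 0.01 and the 19 insulin signalling genes one of −0.06, with 0 at an unadjusted p under 0.05 in either.

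The thermogenic genes of brown and beige fat cells included 3 of the lower values. Cidea, a lipid droplet protein of brown fat, was at 103 and 104 with telmisartan, 226 and 167 with candesartan, 173 and 152 with HFD, and 89.6 and 137 with chow (−0.90, 95% CI −1.47 to −0.34). Prdm16, the regulator of brown fat fate, was at 82.2 and 83.1 with telmisartan, against 131 and 119 with candesartan (−0.59). Its other probe set gave −0.06. Ebf2, a factor of the same lineage, was at 141 and 178 with telmisartan, against 200 and 294 with candesartan (−0.61). In each the telmisartan arrays lay below those of candesartan and HFD. Of the 8 members tested, 4 lay lower and 1 higher without overlap (16.6% and 15.6% of all genes), and the median was −0.27. The defining gene Ucp1 was below the filter, with Dio2, Tmem26 and Tbx1, and Cox8b (0.34) and Elovl3 (0.64) went the other way.

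Lipid synthesis and mitochondrial genes shared small positive differences. Gpam, the first enzyme of triglyceride assembly, was at 4367 and 3183 with telmisartan, 2351 and 2644 with candesartan, 2556 and 2322 with HFD, and 4705 and 3707 with chow (0.58, 95% CI 0.17 to 0.99). Both telmisartan mice lay above the other 4 fat-fed mice. Of 22 lipogenic genes, 7 lay higher and 0 lower without overlap (15.6% and 16.6% of all genes), 1 and 0 had an unadjusted p under 0.05 (1.50% and 3.39% of all genes), and the median was 0.08. Among them the citrate lyase gene Acly differed by 0.30, the triglyceride enzyme gene Dgat1 by 0.20 and the desaturase gene Scd1 by 0.19. The other probe set of Dgat1 gave −0.13 and that of Scd1 −0.09. Of 36 genes of the respiratory chain and the tricarboxylic acid cycle, 15 lay higher and 0 lower without overlap (15.6% and 16.6% of all genes), 0 had an unadjusted p under 0.05, and the median was 0.08, such as 0.20 for Cox6a1 and 0.21 for Cox5b. The medians changed with the scaling of the arrays, as did the median of all genes. With median centring they were 0.12 for the lipogenic list and 0.11 for the respiratory list, beside 0.03 for all genes. With quantile normalization they were 0.06 and 0.03, beside 0.02 for all genes. Without telmisartan array 1 they were 0.04 and −0.02. Without scaling they were −0.17 and −0.18, beside −0.26 for all genes. Cholesterol synthesis (16 genes), fatty acid oxidation (19), lipolysis and lipid droplets (14) and branched-chain amino acid catabolism (18) had medians of 0.09, 0.04, 0.11 and −0.03, with an unadjusted p under 0.05 for Cidea alone. In the same order, the medians were −0.09, −0.03, 0.03 and −0.18 without telmisartan array 1. They were 0.41, 0.19, 0.17 and 0.11 without telmisartan array 2.

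Stromal markers stood lower with telmisartan, and the telmisartan mice were alike in this. Of 15 adipose progenitor and stroma genes, 9 lay lower and 1 higher without overlap (16.6% and 15.6% of all genes), 2 had an unadjusted p under 0.05 on the low side (3.39% of all genes), and the median was −0.20. Beside Pdgfra, Dpt, the matrix protein dermatopontin, was at 5685 and 5559 with telmisartan, against 7644 and 6658 with candesartan (−0.34, 95% CI −0.67 to −0.02). Cd34 was at 1214 and 1130 with telmisartan, against 1407 and 1671 with candesartan (−0.39). The progenitor markers Pi16 (292 and 304 against 411 and 503) and Dpp4 (132 and 180 against 185 and 230) had the same layout, and Thy1 (0.35) the opposite one. The summed signal of the list was 13675 and 13701 with telmisartan, 16581 and 17382 with candesartan, and 15963 and 18545 with HFD. Relative to the HFD mean its median was −0.29 and −0.34 on the telmisartan arrays and −0.14 and 0.06 on the candesartan arrays. Leaving out any drug array kept the median between −0.30 and −0.21.

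Matrix genes were divided. Of 34 tested, 3 lay higher and 6 lower without overlap (15.6% and 16.6% of all genes), 0 and 3 had an unadjusted p under 0.05 (1.50% and 3.39% of all genes), and the median was 0.01. The 3 were the matrix metalloprotease genes Mmp14 (690 and 1019 with telmisartan, 1107 and 1346 with candesartan, −0.54) and Mmp2 (810 and 1084 against 1205 and 1427, −0.48) and the TGF-β receptor gene Tgfbr1 (564 and 904 against 939 and 1114, −0.52). MMP14 is the membrane protease that activates MMP2. In each gene telmisartan array 1 was the lowest of the fat-fed mice. The proteoglycan genes Dcn and Lum differed by −0.29 and −0.24.

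Mesothelial and mast cell genes stood lowest of the lists, and there a telmisartan array set the value. Of 14 mesothelial genes, the cells that line the fat pad, 12 differences were negative, 0 were without overlap, 1 had an unadjusted p under 0.05 and the median was −0.75. Msln, mesothelin, was at 59.7 and 191 with telmisartan, against 152 and 290 with candesartan (−0.98, 95% CI −2.14 to 0.19), and Upk3b at 252 and 1237 against 842 and 1626 with candesartan (−1.07). Telmisartan array 1 was the lowest of the 8 arrays for both. The summed signal was 2614 and 5817 with telmisartan, 4629 and 7709 with candesartan, 5947 and 7869 with HFD, and 7724 and 6836 with chow. Without telmisartan array 1 the median was 0.08. Of 7 mast cell genes tested, 3 lay lower and 0 higher without overlap (16.6% and 15.6% of all genes), 2 had an unadjusted p under 0.05 on the low side (3.39% of all genes), and the median was −0.72. Cma1, the mast cell chymase that can form angiotensin II, was at 129 and 147 with telmisartan, 279 and 326 with candesartan, 210 and 415 with HFD, and 123 and 152 with chow (−1.13, 95% CI −1.81 to −0.46). Both telmisartan mice were low for Cma1, whereas Mcpt4 (114 and 227 against 258 and 274) and Cpa3 (104 and 279 against 304 and 309) were low mainly on array 1. The summed mast cell signal was 807 and 1623 with telmisartan and 1572 and 1828 with candesartan, Kit differed by 0.04, and the median was 0.08 without telmisartan array 1. Fcer1a, Ms4a2, Hdc, Tpsab1, Mcpt2 and Mrgprb1 were below the filter. The part of these cells in the values of other genes was not tested.

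Lymphocyte lists differed more within a drug than between the drugs. The 11 B and plasma cell genes had a median of −0.03 and 0 without overlap. Jchain, the joining chain of secreted antibodies, was at 1539 and 5816 with telmisartan, against 4050 and 985 with candesartan (0.58, 95% CI −1.02 to 2.19). The summed B cell signal was 16452 and 27632 with telmisartan and 22080 and 12602 with candesartan, a spread beside which the antibody genes named above (Igha, Igkv15-103, Igkv9-120 and Igkv6-20) stand. Its part in their values was not tested. The 10 T and NK cell genes had a median of 0.33, which was 0.83 without telmisartan array 1 and −0.05 without array 2. Klrd1, a receptor of NK cells, was at 135 and 122 with telmisartan, against 94.4 and 90.2 with candesartan (0.48). The 21 endothelial genes had a median of 0.11, with 5 higher and 3 lower without overlap (15.6% and 16.6% of all genes). Neutrophil (3 genes tested), red blood cell (2) and skeletal muscle (6) markers had medians of 0.31, 0.28 and 0.14, and the 18 proliferation genes one of −0.05.

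Stress and timing genes made up the rest. Of 19 genes of the unfolded protein response, 10 lay higher and 4 lower without overlap (15.6% and 16.6% of all genes), and 1 had an unadjusted p under 0.05, Herpud1, a part of the degradation machinery of the endoplasmic reticulum, at 1321 and 1319 with telmisartan, against 1118 and 873 with candesartan (0.42, 95% CI 0.08 to 0.75). Hspa5, its main chaperone, was at 7174 and 7379 with telmisartan, against 6119 and 6521 with candesartan (0.20). Hif1a, the oxygen-regulated transcription factor, was at 3528 and 3495 with telmisartan, against 2872 and 2830 with candesartan (0.30, 95% CI 0.03 to 0.57), within a hypoxia and glycolysis list of 18 whose median was 0.07. Of 16 clock genes, 6 lay lower and 2 higher without overlap (16.6% and 15.6% of all genes), 1 had an unadjusted p under 0.05, and the median was −0.21 (−0.066 without telmisartan array 1). Arntl, which encodes the clock activator BMAL1, was at 93.8 and 87.0 with telmisartan, 126 and 155 with candesartan, and 125 and 124 with HFD (−0.63, 95% CI −1.11 to −0.15), and its partner Clock differed by −0.33. Nfil3, a repressor of clock output genes, had the highest difference of the list, with 186 and 158 with telmisartan, against 122 and 62.7 with candesartan (0.98, 95% CI −0.57 to 2.52). The hour at which tissue was taken is not given in the sources used here. Sgk1, a kinase that gluco- and mineralocorticoids induce, was at 845 and 1105 with telmisartan, against 1238 and 1896 with candesartan (−0.66), in a list of 15 with a median of 0.03. The 19 immediate early genes had a median of −0.17, which turned to 0.08 without telmisartan array 1 and to 0.03 without candesartan array 2, and the 18 NADPH oxidase and antioxidant genes one of −0.06, where Hmox1, the haem-degrading enzyme, was at 1043 and 1670 with telmisartan, against 884 and 1002 with candesartan (0.49).

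**Figure D5:**
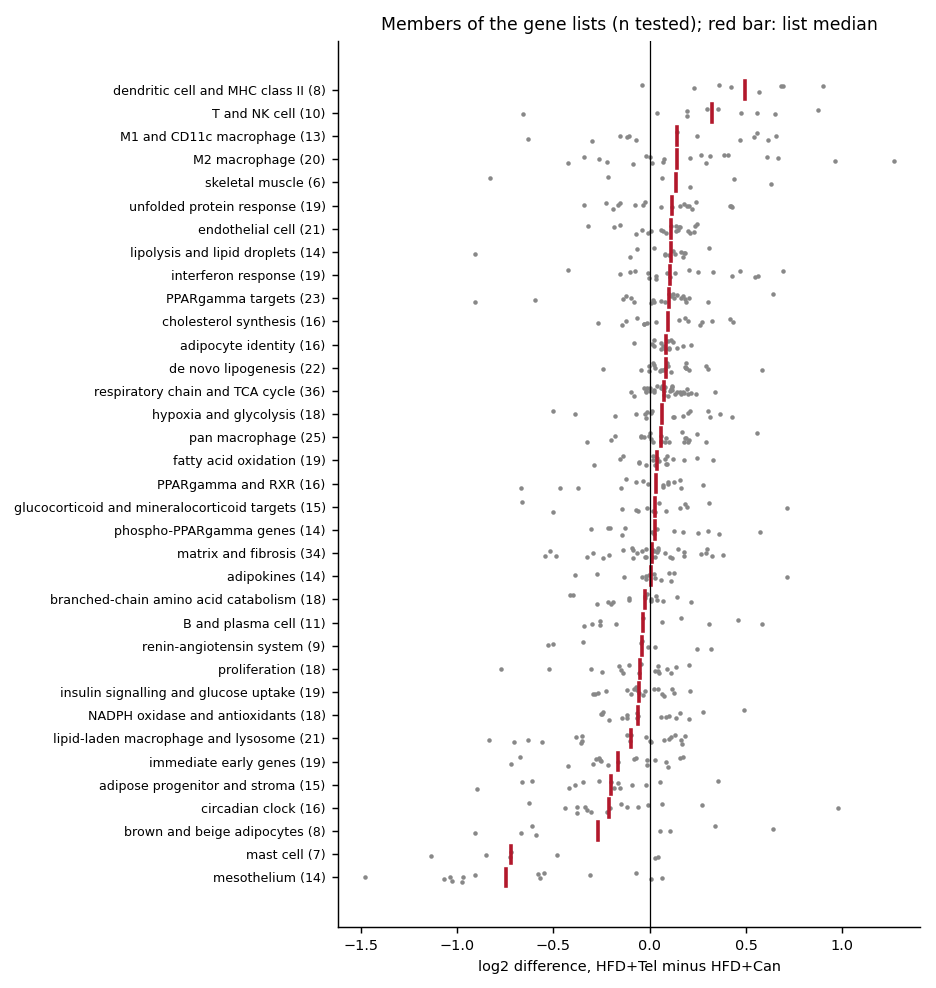
Each grey point is the log2 difference (HFD+Tel minus HFD+Can) of a gene of the list named on the y axis, with the number of genes tested in parentheses, and the red bar is the median of the list. Medians run from −0.75 for mesothelium to 0.49 for dendritic cell and MHC class II genes, and the adipocyte genes keep closest together.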

How the data were processed

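The authors deposited 1 linear intensity for each probe set and array (Affymetrix Mouse Genome 430 2.0, biotin label), computed with the GeneChip Analysis Suite software, per the series design text. Neither the release of its summary algorithm nor any target scaling is stated there. The table held 45101 probe sets, 64 of them array controls, and 0 columns of other samples.

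All arrays were brought to the same 2%-trimmed mean, values under the 20th percentile (6.69) were set to it, and log2 was taken of the deposited values so scaled. Probe sets at or above the 50th percentile of mean log2 signal over all arrays were kept (22519, of which 19710 with 1 gene symbol). The platform annotation gave 1 symbol to 34945 probe sets and several to 932, and did not list 9160. The identifiers of 11200 of the 11232 genes matched the RefSeq gene table, which changed 0 symbols. For a gene with several probe sets (5147 genes) the brightest was used, and of 58 named genes with several, 45 had all of them on the same side of 0. Probe sets of the type described for Cd163l1, able to match other transcripts, also gave the values of Prss23, Igkv9-120, H2-Aa, Cox5b and Lyz1, among others.

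limma 3.58.1 in R 4.3.3 was fitted with 4 group means on all 8 arrays (4 residual degrees of freedom, eBayes with an intensity trend) and the contrast HFD+Tel minus HFD+Can. Tests were two-sided, with Benjamini-Hochberg adjustment over all genes, called under 0.05, and 95% intervals. The script was tested on simulated data. The number of arrays limits the precision. The labels give each array as a separate mouse of its group. Groups were taken from the sample titles. Genes were named by a rule. Per direction it took the 10 smallest p with a difference of at least 0.5. It then took the 5 largest differences with an unadjusted p under 0.05. Both parts required drug arrays without overlap. The 3 smallest p of each of 38 gene lists and a set always given were added. Clone and predicted names were skipped in the first 2 parts, and further list members were picked as examples with their values in view. The members and lists were chosen with earlier results of these data known. Alternatives covered normalization, floor, filter, variance, arrays in the fit, probe set choice, the replicate number as a block and each array left out. Figures were drawn with Python 3.11.15 and matplotlib 3.10.9.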

Additional observations from a re-analysis of the deposited data

How the results depend on the processing

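The count of genes called stayed at 0 under each alternative except for the values as deposited without scaling, which gave 1 (Cd163l1), and no filter, which gave 6 of 18193 genes (Cartpt, Cckbr, Gm17619, Ifna2, Obp2a and Rapsn), each with a drug group at the floor. Genes with an unadjusted p under 0.05 numbered 1659 without scaling and 1154 without a filter, and 210 to 1791 when an array was left out, where the lone array of a group is taken to vary like the other groups. Genes without overlap numbered 5472 without scaling, and 3615 to 8936 when an array was left out, by construction more with a lone array. Without a filter, 46.8% of the genes with an unadjusted p under 0.05 were higher (540 and 614). No called count changed when an array was left out (0 to 0).

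Same-numbered arrays are not stated to share a litter, batch or day. Their deviations correlated at 0.206 between telmisartan and candesartan and at −0.041 to 0.167 for other pairs of groups. With the replicate number as a block 0 genes were called, 724 had an unadjusted p under 0.05 and 3615 did not overlap.

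Leaving out the scaling moves the difference of every gene down by about the same amount, and small positive ones turn negative. The log2 difference changed sign for some genes, and for the other settings the cause was not tested. With quantile normalization this held for Adipoq −0.12, Lep −0.071. With median centring it held for Adgre1 0.0021. With the mean of a gene's probe sets it held for Fabp4 −0.24, Rarres2 −0.15, Ndufv2 −0.018, Flt1 −0.0046. Without scaling, where the median of all genes was −0.26, it held for Agtrap −0.0089, Fabp4 −0.11, Dgat1 −0.051, Cidec −0.083, Trarg1 −0.040, Rarres2 −0.13, Ptpn1 −0.043, Scd1 −0.063, Acaa2 −0.011, Cox6a1 −0.056, Ndufv2 −0.011, Cox5b −0.042, Plin2 −0.092, Lyz1 −0.077, C1qb −0.0076, Hspa5 −0.050, Mt1 −0.059, Esam −0.023, Flt1 −0.018, Alas2 −0.18, Pparg −0.16, Adipoq −0.23, Lep −0.19, Pdk4 −0.24, Agtr1a −0.23, Mrc1 −0.044, Cd74 −0.023. When an array was left out, the ranges that crossed 0 were Adgre1 −0.53 to 0.47, Adipoq −0.089 to 0.13, Agt −0.27 to 0.90, Agtr1a −0.12 to 0.17, Aif1 −0.11 to 1.22, Alas2 −0.036 to 0.18, Arg1 −0.080 to 0.61, C1qb −0.089 to 0.58, Csf3r −0.40 to 1.01, Jchain −0.44 to 1.60, Lep −0.13 to 0.25, Mki67 −1.13 to 0.076, Mrc1 −0.27 to 0.69, Pdk4 −0.37 to 0.40, Pik3ca −0.65 to 0.082, Pparg −0.14 to 0.33, Ptpn1 −0.039 to 0.46, Slc2a4 −0.46 to 0.29. List medians that changed sign with quantile normalization were phospho-PPARgamma genes −0.070, adipocyte identity −0.0066, adipokines −0.048, fatty acid oxidation −0.018, pan macrophage −0.0071, matrix and fibrosis −0.059, B and plasma cell 0.048, proliferation 0.0020, and with median centring branched-chain amino acid catabolism 0.0080.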
